A study of Mus musculus with 2 samples.

Results

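Histone genes were followed in 2 single-cell RNA libraries of living CD45+ cells, sorted from livers of mice with B16F10 metastases (B16F10 is a melanoma cell line of the mouse). The genes were taken by symbol, as all rows of the deposited tables starting with Hist1h, Hist2h, Hist3h, Hist4h, H1f, H2ac, H2bc, H3c, H4c, H2af, H2az or H3f, which gave 73 of 31253 genes. Of these, 58 are core histone genes of the replication-dependent clusters (17 H2A, 17 H2B, 12 H3 and 12 H4), 6 are the linker histone genes H1f1 to H1f6 of the same clusters, 8 are variant genes outside the clusters, and 1 is H3f3aos, a non-coding RNA antisense to H3f3a that was kept out of all sums. One library came from Vsig4 knockout mice (written Vsig4 KO here and Vsig4-/- in the labels' protocol) and 1 from wild-type (WT) mice; VSIG4 is a complement receptor of Kupffer cells, the macrophages resident in the liver. Both groups carried B16F10 metastases, both were sorted for living CD45+ single cells, and the labels give neither strain, age, sex nor the number of mice behind a library. With 1 library per genotype no test was possible: every interval below is a 95% interval of counting error alone, and cells are not replicates.

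Histones package DNA into nucleosomes. The clustered genes are switched on in S phase, when new DNA must be packaged, and their main transcripts end in a stem-loop rather than a poly(A) tail; the stem-loop binding protein SLBP handles that end. Variant genes such as H3f3a and H3f3b, which encode H3.3, and H2az1 and H2az2, which encode H2A.Z, are transcribed through the cell cycle, end in a poly(A) tail and supply nucleosome exchange outside replication. Linker histones of the H1 group sit where DNA enters and leaves the nucleosome, and several clustered genes can also make polyadenylated transcripts in differentiated cells.

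The stem-loop is shown because it ends the main transcripts of clustered histone genes, while these libraries, per the labels, were made from poly-A RNA. It was found by script in the annotated GENCODE M21 transcripts of 39 of 58 replication-dependent core genes, 4 of 6 clustered H1 genes and 0 of 8 variant genes, against 70 of 21951 coding genes (0.319%). The 16-base stem and loop are in capitals, with up to 6 bases of flank, each read 5′ to 3′ on the transcript:
Hist1h2ap: aaaaaaGGCTCTTTTCAGAGCCatc
H2ac8: aacaaaGGCTCTTTTCAGAGCCattcac
H3c6: caaaacGGCTCTTTTAAGAGCCacctcc
H4c4: accaaaGGCCCTTTTCAGGGCCactacc
H4c9: cttaaaGGCCCTTTTTAGGGCCaccaca
H1f4: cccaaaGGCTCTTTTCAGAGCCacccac
H1f2: ccaaaaGGCTCTTTTCAGAGCCaccact
The H2A and H1 sites shown share 1 stem and loop, the H3c6 site differs from it in the loop, and the H4 sites carry a stem of their own. A site not found is missing from the annotated transcript, and the gene may still carry one. Some of these transcripts are short, with 393 bases for H2ac15, 381 for H2bc18 and 312 for H4c12, and others long, with 2620 for H2bc21. The annotation runs at least 100 bases past the stem-loop for 16 core genes and for all 4 H1 genes with a site. For Hist1h2ap it ends 3 bases after the stem-loop, for H2ac8 151 bases, for H1f2 840 bases and for H1f4 1153 bases.

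Promoters are shown for H2ac8, a core gene high in cycling cells, for H1f4, a linker gene high in both states, and for H2az1, a variant that was also higher in cycling cells. Each window holds 250 bases before to 50 after the gene's start, from the RefSeq promoter table on GRCm38.p6, written on the gene's strand with 4 motifs in capitals where either strand matched: the CCAAT box (CCAAT), the TATA box (written as TATAAA), the octamer (ATTTGCAT) and the H1 box (AAACACA). The H2ac8 window is chr13:23571171-23571470 on the minus strand and overlaps, on the other strand, the window of the divergent H2bc8. Its marked TATAAA and octamer matches read on the strand of H2bc8, so either gene may be the one they belong to. The H1f4 window is chr13:23622509-23622808 on the minus strand and the H2az1 window chr3:137864237-137864536 on the plus strand.
H2ac8: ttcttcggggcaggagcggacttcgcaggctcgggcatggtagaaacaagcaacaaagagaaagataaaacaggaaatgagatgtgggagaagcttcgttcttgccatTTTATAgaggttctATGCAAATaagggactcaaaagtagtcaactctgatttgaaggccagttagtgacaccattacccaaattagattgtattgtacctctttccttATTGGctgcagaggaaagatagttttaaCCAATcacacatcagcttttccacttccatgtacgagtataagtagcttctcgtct
H1f4: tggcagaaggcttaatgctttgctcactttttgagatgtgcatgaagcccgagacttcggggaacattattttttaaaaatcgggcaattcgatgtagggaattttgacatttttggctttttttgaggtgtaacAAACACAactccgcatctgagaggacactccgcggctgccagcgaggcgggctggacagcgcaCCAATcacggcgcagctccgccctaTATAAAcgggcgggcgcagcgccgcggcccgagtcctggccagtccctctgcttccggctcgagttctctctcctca
H2az1: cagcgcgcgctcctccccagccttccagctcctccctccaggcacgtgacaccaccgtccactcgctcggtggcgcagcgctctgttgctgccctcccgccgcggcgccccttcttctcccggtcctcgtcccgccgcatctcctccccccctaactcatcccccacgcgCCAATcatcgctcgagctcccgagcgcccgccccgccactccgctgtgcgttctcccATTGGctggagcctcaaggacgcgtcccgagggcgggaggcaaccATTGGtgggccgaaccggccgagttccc
The table held windows for 59 of 73 members. CCAAT stood on either strand in 39 of 45 core windows, 6 of 6 H1 windows and 5 of 8 variant windows, against 37.9% of 27025 gene windows of this length. ATTTGCAT, the octamer, stood in 6 of 14 H2A and 6 of 12 H2B windows and in 0 H3, 0 H4 and 0 H1 windows, against 1.75% of all windows. AAACACA stood in 5 of 6 H1 windows, against 7.14% of all, and TATAAA in 26 of 45 core windows, 4 of 6 H1 windows and 1 of 8 variant windows, against 14.2% of all. None of these motifs is contained in another, and a match is a description of letters, not of binding.

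The Vsig4 KO library kept 5482 cells with a median of 3260 UMIs (unique molecular identifiers, 1 per captured RNA), and the WT library 6494 cells with a median of 3034. Vsig4 itself gave 3 UMIs in cells not counted as cycling and 0 in cycling cells of the Vsig4 KO library, against 28 and 15 UMIs in WT, in the direction of the labels. Of the barcodes, 54 occur in both libraries. Levels are given as CPM, the usual scaling of a gene's UMIs by all UMIs of the cells summed; they count captured molecules and are not divided by length, so genes are compared with themselves. Cell types were called from marker genes of clusters and are written as X-like. The CD8 T cell and macrophage classes each held a cluster whose leading genes included more markers of another class than of its own, so their 7 clusters are given by number within the broader T cell-like (clusters 6, 10 and 17) and monocyte and macrophage-like types (clusters 5, 8, 15 and 16). Among the leading genes were Cd8b1 in clusters 6 and 10, Ikzf2 and Trdc in cluster 17, Chil3 and Ace in cluster 5, F13a1 in cluster 8, Pid1 in cluster 15 and C1qa, C1qb and C1qc in cluster 16. Histone genes were kept out of the genes used for clustering. Among all genes compared between the finished clusters, H1f5, H2ac15, H2ac4, H2ac8, Hist1h2ap and H1f3 were among the leading genes of cluster 10.

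Cycling cells were those with at least 4 UMIs over the proliferation genes Mki67, Top2a, Birc5 and Ube2c, none of which is a histone gene, and all remaining cells are called other cells. There were 100 cycling cells in the Vsig4 KO library (1.82%, Clopper-Pearson 1.49 to 2.21) and 120 in WT (1.85%, 1.53 to 2.21). Cycling cells were deeper, with median UMIs of 9826 against 3234 in other cells of the Vsig4 KO library and 9442 against 3005 in WT. T cell-like cells made up 43 and 53 of them, and monocyte and macrophage-like cells 20 and 28; no other type had 10 in both libraries. The T cell-like cycling cells held Cd3e at 769 CPM in Vsig4 KO and 594 CPM in WT, with C1qa at 14.0 and 17.8 CPM, and the monocyte and macrophage-like ones C1qa at 2475 and 2122 CPM, with Cd3e at 0 and 20.6 CPM. Cells with 4 or 5 such UMIs, next to the threshold, numbered 23 in Vsig4 KO and 30 in WT, and other cells with 2 or 3 numbered 112 and 101.

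Replication-dependent core histone RNA was an order of magnitude more abundant in cycling cells, while variant histone RNA was only modestly higher. In the Vsig4 KO library the summed core genes reached 6336 CPM in cycling cells and 384 CPM in other cells, a ratio of 16.5 (15.99 to 17.01). In WT they reached 3860 CPM in cycling cells and 258 CPM in other cells, a ratio of 14.9 (14.4 to 15.5). The clustered H1 genes stood at 3194 and 353 CPM in Vsig4 KO (9.06-fold, 8.71 to 9.41) and at 2098 and 185 CPM in WT (11.3-fold, 10.8 to 11.9). Variant genes stood at 5049 and 3673 CPM in Vsig4 KO (1.38-fold, 1.34 to 1.41) and at 4845 and 3632 CPM in WT (1.33-fold, 1.30 to 1.37). Cycling cells thus held more core histone UMIs than other cells in both libraries by far more than counting error, and the intervals of the core and variant ratios lay far apart.

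The count of single genes shows the same contrast. A gene was counted when its 2 groups held at least 20 UMIs together and differed at least 1.5-fold on log2(CPM + 10); a low gene can enter through the group in which it is high. In the Vsig4 KO library 53 of 59 members were higher in cycling cells, against a background of 10.2% of all genes, and 0 were lower, against 12.1%. In WT 47 of 56 were higher, against 11.3%, and 0 lower, against 10.9%. By kind these were 44 of 48 core, 5 of 5 H1 and 4 of 6 variant genes in Vsig4 KO, and 39 of 46, 5 of 5 and 3 of 5 in WT.

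**Figure D1:**
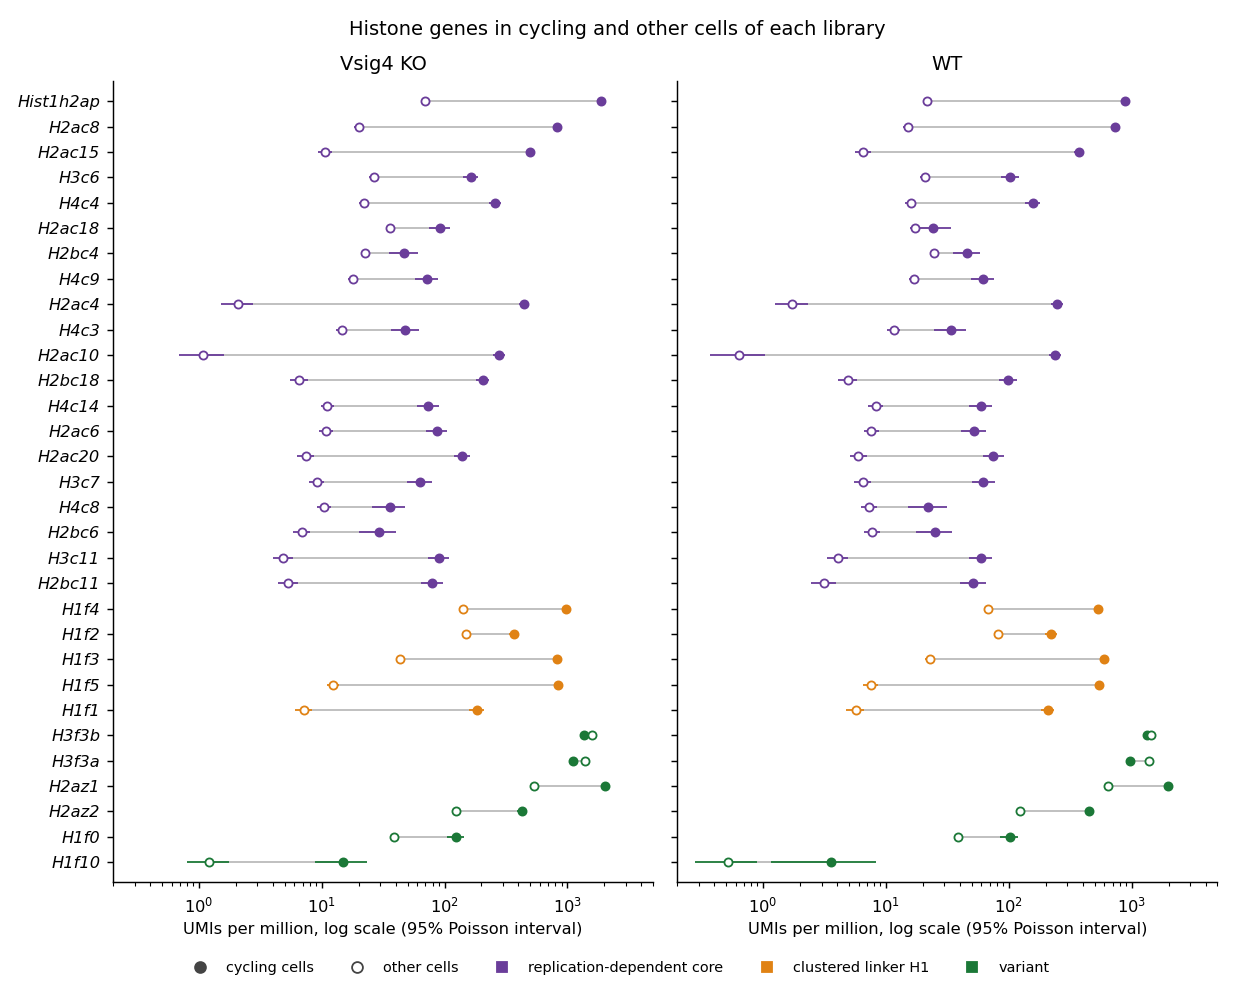
Level of 31 histone genes in cycling cells (filled) and other cells (open) of the Vsig4 KO (left) and WT (right) libraries, in CPM on a log axis with 95% Poisson intervals; colours mark the kind of gene. The H2A genes H2ac4 and H2ac10 span the widest gaps between states, H2bc4 narrow ones, and H3f3a and H3f3b sit slightly lower in cycling cells. All cell types are summed.

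Among core genes the H2A genes changed most. Their sum was 26.8-fold higher in cycling cells of Vsig4 KO (25.7 to 27.9) and 32.5-fold in WT (30.8 to 34.3). H2B gave 10.6-fold and 6.32-fold, H3 9.92-fold and 8.28-fold, and H4 6.33-fold and 5.46-fold in Vsig4 KO and WT. Hist1h2ap, a canonical H2A gene, was the core member with the most UMIs: 1893 CPM in cycling and 68.9 CPM in other cells of Vsig4 KO, and 878 and 21.8 CPM in WT. It made up 29.9% of the core sum in cycling Vsig4 KO cells and 22.8% in cycling WT cells. Only 6.93% of its 50-base windows are unique in the annotated transcripts, most being shared with Hist1h2ao. Hist1h2ao itself had 0 and 4 UMIs in cycling cells and 2 and 2 in other cells of Vsig4 KO and WT. How RNA from the shared stretches was counted cannot be told here.

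H2ac4 and H2ac10, also canonical H2A genes, had the highest ratios of the 20 core genes with the most UMIs. H2ac4 stood at 441 CPM in cycling and 2.08 CPM in other cells of Vsig4 KO (212-fold), and at 247 and 1.73 CPM in WT (143-fold). H2ac10 stood at 278 and 1.08 CPM in Vsig4 KO (257-fold) and at 239 and 0.643 CPM in WT (372-fold). In other cells these are 46 and 43 UMIs of H2ac4 and 24 and 16 UMIs of H2ac10, so the folds rest on small denominators. Only 42.0% of the 50-base windows of H2ac4 and 20.3% of those of H2ac10 are unique in the annotated transcripts. H2ac8 reached 823 against 20.2 CPM in Vsig4 KO (40.7-fold) and 729 against 15.2 CPM in WT (48.0-fold), and H2ac15 gave 46.4-fold and 57.1-fold.

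Other H2A members were flatter. H2ac18, an H2A gene of the chromosome 3 cluster that shares 89.4% of its windows with Gm20634, stood at 91.3 against 36.3 CPM in Vsig4 KO (2.51-fold) and at 24.3 against 17.2 CPM in WT (1.41-fold). H2ac6 gave 7.98-fold and 6.85-fold, and H2ac20 18.8-fold and 12.6-fold, in Vsig4 KO and WT. Among the H2A genes named here H2ac18 had the lowest and H2ac10 the highest ratio in both libraries.

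The H2B genes held both a weakly and a strongly cycling member. H2bc4, an H2B gene known to give polyadenylated RNA outside S phase, stood at 46.5 against 22.7 CPM in Vsig4 KO (2.05-fold) and at 45.8 against 24.7 CPM in WT (1.86-fold). H2bc18 stood at 204 against 6.59 CPM (31.0-fold) and at 98.8 against 4.90 CPM (20.2-fold). H2bc6 gave 4.24-fold and 3.23-fold, and H2bc11 14.7-fold and 16.5-fold. Of the H3 genes, H3c6 gave 6.17-fold and 4.96-fold, H3c7 6.92-fold and 9.57-fold and H3c11 18.4-fold and 14.7-fold. Of the H4 genes, H4c4 gave 11.9-fold and 9.81-fold, H4c14 6.63-fold and 7.15-fold, H4c9 3.99-fold and 3.64-fold, H4c8 3.40-fold and 3.04-fold and H4c3 3.31-fold and 2.90-fold. In each of these pairs the Vsig4 KO value is given before the WT value. The remaining 38 core genes had at most 363 UMIs each over both libraries, the top being Hist1h4n, and 3 of them, Hist1h2bq, H2bc1 and H2ac1, had none.

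The ratio differed between groups of genes with different annotated 3′ ends. The 23 core genes whose annotation ends within 100 bases of the stem-loop were 19.8-fold higher in cycling cells of Vsig4 KO and 20.5-fold in WT. The 16 whose annotation runs further were 11.3-fold and 10.8-fold higher, and the 19 without a stem-loop in the annotation 20.4-fold and 16.6-fold. That last group is set by the annotation, which is short for some of its genes, and need not be a class of genes lacking the stem-loop. Members within each group ranged widely, for example 3.31-fold for H4c3 to 40.7-fold for H2ac8 among the genes with a longer annotation in Vsig4 KO.

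The linker genes of the clusters did not move as one. H1f5 stood at 840 CPM in cycling and 12.4 CPM in other cells of Vsig4 KO (67.7-fold), and at 546 and 7.51 CPM in WT (72.7-fold). H1f1 gave 25.6-fold and 36.5-fold and H1f3 18.8-fold and 26.0-fold. H1f4 stood at 979 and 140 CPM in Vsig4 KO (6.98-fold) and at 533 and 67.4 CPM in WT (7.90-fold). H1f2 was flattest, at 371 and 149 CPM in Vsig4 KO (2.49-fold) and 220 and 82.1 CPM in WT (2.68-fold). H1f2 and H1f4 together therefore supplied most H1 UMIs of other cells, and H1f3, H1f4 and H1f5 most of those in cycling cells. H1f6, a testis gene, had 2 UMIs in other cells of Vsig4 KO and 1 UMI in cycling cells of WT.

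The variant genes split in both directions. H2az1 stood at 2016 CPM in cycling and 533 CPM in other cells of Vsig4 KO (3.78-fold), and at 1989 and 642 CPM in WT (3.10-fold). H2az2 stood at 427 and 124 CPM (3.44-fold) and at 451 and 123 CPM (3.66-fold). H1f0, the linker histone of differentiated and resting cells, stood at 124 and 38.8 CPM (3.19-fold) and at 102 and 38.9 CPM (2.61-fold). Summed over all cell types, the H3.3 genes were lower in cycling cells. H3f3b stood at 1361 and 1572 CPM in Vsig4 KO (0.866-fold) and at 1331 and 1437 CPM in WT (0.927-fold). H3f3a stood at 1106 and 1403 CPM (0.788-fold) and at 969 and 1390 CPM (0.697-fold). The mix of types differed between the states. B cell-like cells, with the highest H3f3a level among other cells, were 2046 of 5382 and 1888 of 6374 other cells. They were 5 of 100 and 0 of 120 cycling cells, and the direction of the H3.3 genes within cell types was not tested. H1f10 had few UMIs, 14.9 against 1.22 CPM in Vsig4 KO and 3.58 against 0.522 CPM in WT. H1f8, an oocyte gene, had 1 UMI in all and H1f7, a testis gene, none.

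The contrast was present in both cell types with enough cycling cells, and it was larger in T cell-like cells. There the core sum was 7801 CPM in cycling against 333 CPM in other cells of Vsig4 KO (23.5-fold, 22.3 to 24.7) and 5758 against 253 CPM in WT (22.8-fold, 21.4 to 24.2). In monocyte and macrophage-like cells it was 1067 against 237 CPM in Vsig4 KO (4.51-fold, 3.62 to 5.56) and 654 against 190 CPM in WT (3.44-fold, 2.84 to 4.14). H1 genes gave 18.6-fold and 22.7-fold in T cell-like cells of Vsig4 KO and WT, against 1.29-fold (0.801 to 1.97) and 1.67-fold (1.16 to 2.32) in monocyte and macrophage-like cells. Variant genes gave 2.12-fold in T cell-like cells of both libraries, against 1.19-fold (1.08 to 1.30) and 1.02-fold (0.953 to 1.09). These ratios also compare different clusters, since cluster 16 held 17 of the 20 cycling monocyte and macrophage-like cells of Vsig4 KO and 25 of the 28 of WT, but 130 of 532 and 155 of 1209 of the other cells. Within cluster 16 the core ratio was 2.83 (2.195 to 3.63) in Vsig4 KO and 2.57 (1.98 to 3.33) in WT, the H1 ratio 3.21 (1.74 to 5.755) and 3.08 (1.67 to 5.66) and the variant ratio 1.57 and 1.40. Within cluster 10, which held 23 and 24 of the cycling T cell-like cells, the core ratio was 28.6 (25.8 to 31.8) and 30.04 (26.45 to 34.2), and within regulatory T cell-like cells, which held 13 and 18, it was 15.5 (13.1 to 18.4) and 18.2 (14.8 to 22.6). The core intervals of both T cell-like clusters lay above that of cluster 16 in each library. Median depth of the cycling cells differed alongside, at 11619 and 11261 UMIs in T cell-like and 4293 and 4386 UMIs in monocyte and macrophage-like cells, and its part in the difference was not tested.

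Core histone RNA was highest in cells with the most proliferation-gene UMIs, but the rise over the bins was uneven. In cells with 4 to 7 of these UMIs the core sum was 646 CPM in Vsig4 KO (37 cells) and 624 CPM in WT (46 cells). With 8 to 15 it was 2923 CPM in Vsig4 KO (25 cells) and 704 CPM in WT (24 cells), and with 16 or more 10410 CPM (38 cells) and 5847 CPM (50 cells). The lowest of these bins overlapped between libraries and the higher bins did not. Within WT the 4 to 7 bin (538 to 719) and the 8 to 15 bin (600 to 822) overlapped. From the 0 bin to the highest bin, median depth rose from 3168 to 17060 UMIs in Vsig4 KO and from 2933 to 16140 in WT. The part of depth in these levels was not tested. In cells with 0 such UMIs the core sum was 391 CPM in Vsig4 KO and 259 CPM in WT, and with 1 to 3 it was 338 and 249 CPM. Cells with 0 UMIs of only 4 genes need not all be outside the cycle. Variant genes moved far less, between 3526 CPM with 1 to 3 UMIs and 5539 CPM with 16 or more in Vsig4 KO and between 3624 and 5218 CPM in WT.

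**Figure D2:**
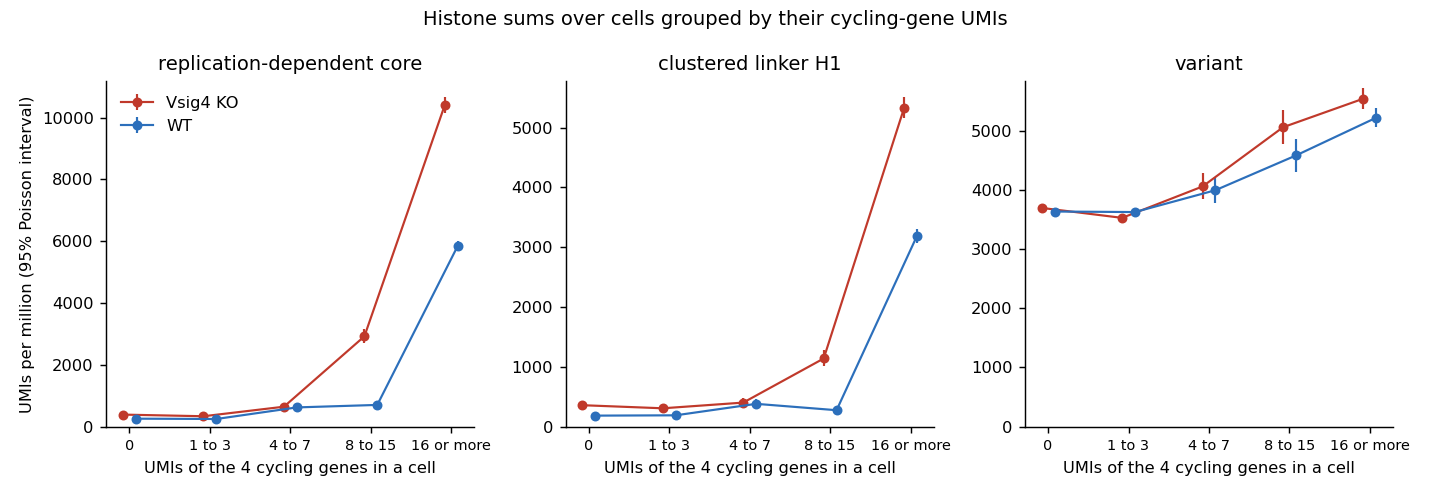
Summed core, clustered H1 and variant histone genes in CPM (linear axes from 0, 95% Poisson intervals) over cells grouped by their UMIs of Mki67, Top2a, Birc5 and Ube2c, in the Vsig4 KO (red) and WT (blue) libraries. Core genes stand at 391 CPM in Vsig4 KO and 259 CPM in WT with 0 UMIs and at 646 and 624 CPM with 4 to 7; core and H1 genes are highest at 16 or more, where Vsig4 KO reaches 10410 and WT 5847 CPM for core genes; variant genes lie between 3526 and 5539 CPM in all bins.

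These sums rest on few cells. The 10 cells with the most core histone UMIs held 52.3% of the core UMIs of the 100 cycling Vsig4 KO cells and 50.5% of those of the 120 cycling WT cells. Core histones took at least 1% of all UMIs in 21 cycling cells of Vsig4 KO and 7 of WT. The median cycling cell was alike in both, with 0.108% of its UMIs from core genes in Vsig4 KO and 0.106% in WT, while the upper quartile was 0.915% and 0.475%. At the bottom, 11 and 10 cycling cells had no core histone UMI.

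In other cells, too, the Vsig4 KO library held more clustered histone RNA than WT, and alike amounts of variant RNA. The core sum was 384 CPM in Vsig4 KO and 258 CPM in WT, a ratio of 1.49 (1.44 to 1.54). The clustered H1 sum was 353 and 185 CPM, a ratio of 1.90 (1.83 to 1.97), and the variant sum 3673 and 3632 CPM, a ratio of 1.01 (1.002 to 1.021). The mix of cell types differed between the libraries, with 2046 B cell-like cells among the 5382 other cells of Vsig4 KO and 1888 among the 6374 of WT, and 532 and 1209 monocyte and macrophage-like cells. Within 11 cell classes and the 7 numbered clusters the median ratio was 1.29 for core, 1.665 for H1 and 1.065 for variant genes. After every cell was thinned to 2000 UMIs, which left out 1039 and 1570 shallower cells, 49.5% of Vsig4 KO and 37.0% of WT cells held a core histone UMI, and 38.4% and 24.9% an H1 UMI (65.1% and 51.5%, and 50.5% and 34.4%, before thinning). Variant UMIs were found in 99.1% and 98.8% of thinned cells. No cell type lacks histone genes, so no background share could be set beside these values; they are not shares of expressing cells, and the part of free RNA in them was not tested.

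By count, 6 of 57 members were at least 1.5-fold higher in other cells of Vsig4 KO, against a background of 0.835% of all genes, and 0 were lower, against 1.0%. These 6 were Hist1h2ap, Hist1h4n, H2ac18, H1f2, H1f3 and H1f4. Without regard to size, 38 of 46 core genes and 5 of 5 H1 genes had a ratio above 1, with a median of 1.32 and 1.82, and the interval lay above 1 for 20 core genes and below 1 for 1, H3c3, which had 6 UMIs in Vsig4 KO and 22 in WT and was named, like Hist1h4n, after its values were seen. The median log2 ratio over all genes counted was 0.01. Intervals above or below 1 were not counted over all genes, so the interval counts have no background beside them.

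The H2A genes carried most of the core difference. Their sum was 168 CPM in Vsig4 KO and 83.9 CPM in WT, a ratio of 2.0, against 1.12 for H2B, 1.24 for H3 and 1.34 for H4. Within the classes and clusters the H2A ratio was above 1 in 18 of 18 (median 1.56, interval above 1 in 14) and the H4 ratio in 15 of 18 (median 1.14, interval above 1 in 5). The H2B ratio was above 1 in 11 of 18 (median 1.12), with the interval above 1 in 1 and below 1 in 1. The H3 ratio was above 1 in 7 of the 17 with at least 20 UMIs (median 0.982), with the interval above 1 in B cell-like (1.39, 1.19 to 1.62) and NK cell-like cells (1.62, 1.26 to 2.08) and below 1 in cluster 17 (0.461, 0.252 to 0.821). Summed by type, H3 genes had a ratio of 0.971 (0.833 to 1.13) in T cell-like and 0.8075 (0.619 to 1.045) in monocyte and macrophage-like cells. Hist1h2ap stood at 68.9 CPM in Vsig4 KO and 21.8 CPM in WT (3.16-fold, 2.87 to 3.50), and H2ac18 at 36.3 and 17.2 CPM (2.11-fold, 1.87 to 2.38). Hist1h4n, an H4 gene that shares most of its sequence with Hist1h4m, stood at 10.8 and 3.17 CPM (3.41-fold). Without these 3 genes, each of which shares most of its 50-base windows with another annotated gene, the core ratio was 1.24. Other core genes still in that sum also share most windows, among them H2ac10 (20.3% unique) and H3c6 (26.6%).

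Most other core genes differed by less. H2ac8 stood at 20.2 CPM in Vsig4 KO and 15.2 CPM in WT (1.33-fold, 1.16 to 1.53), H3c6 at 26.5 and 20.8 CPM (1.28-fold) and H4c4 at 21.9 and 15.98 CPM (1.37-fold). H2bc4 was at 22.7 and 24.7 CPM (0.920-fold, 0.816 to 1.04) and H2bc6 at 6.86 and 7.75 CPM (0.885-fold, 0.711 to 1.10), so neither H2B gene stood apart from WT. H4c9, at 18.1 and 16.9 CPM, had a ratio of 1.07 (0.931 to 1.23). Of the low H2A, H2B and H4 members, H2ac15 was at 10.7 and 6.55 CPM (1.63-fold), H2bc11 at 5.37 and 3.13 CPM (1.71-fold), H2ac6 at 10.9 and 7.63 CPM (1.43-fold) and H4c8 at 10.51 and 7.31 CPM (1.44-fold), each with its interval above 1. The intervals of H2ac4 (0.776 to 1.87), H2ac10 (0.859 to 3.40), H2ac20 (0.985 to 1.55) and H3c11 (0.907 to 1.59) included 1. These ratios over all other cells did not all hold within classes and clusters, counted where a gene had at least 20 UMIs. There Hist1h2ap was above 1 in 15 of 15 (median 2.56) and H2ac18 in 12 of 12 (median 2.24). H4c4 was above 1 in 9 of 12 (median 1.25), H2ac8 in 5 of 11 (median 0.9865) and H3c6 in 8 of 15 (median 1.016), from 0.377 (0.130 to 0.981) in cluster 17 to 1.65 (1.11 to 2.48) in NK cell-like cells.

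Among the linker genes, H1f4 stood at 140 CPM in Vsig4 KO and 67.4 CPM in WT (2.08-fold, 1.96 to 2.21). H1f2 stood at 149 and 82.1 CPM (1.82-fold, 1.72 to 1.92), H1f3 at 43.8 and 22.7 CPM (1.93-fold), H1f5 at 12.4 and 7.51 CPM (1.65-fold) and H1f1 at 7.13 and 5.66 CPM (1.26-fold, 0.997 to 1.59). Of the variants, H3f3b stood at 1572 and 1437 CPM (1.09-fold, 1.08 to 1.11), H3f3a at 1403 and 1390 CPM (1.01-fold), H2az2 at 124 and 123 CPM (1.01-fold), H1f0 at 38.8 and 38.9 CPM (0.997-fold) and H2az1 at 533 and 642 CPM (0.831-fold, 0.811 to 0.851). H1f10 had 27 and 13 UMIs, and the antisense H3f3aos 43 and 35. H1f4 overlaps H2bc6 on the same strand, so UMIs near their shared stretch may belong to either gene.

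**Figure D3:**
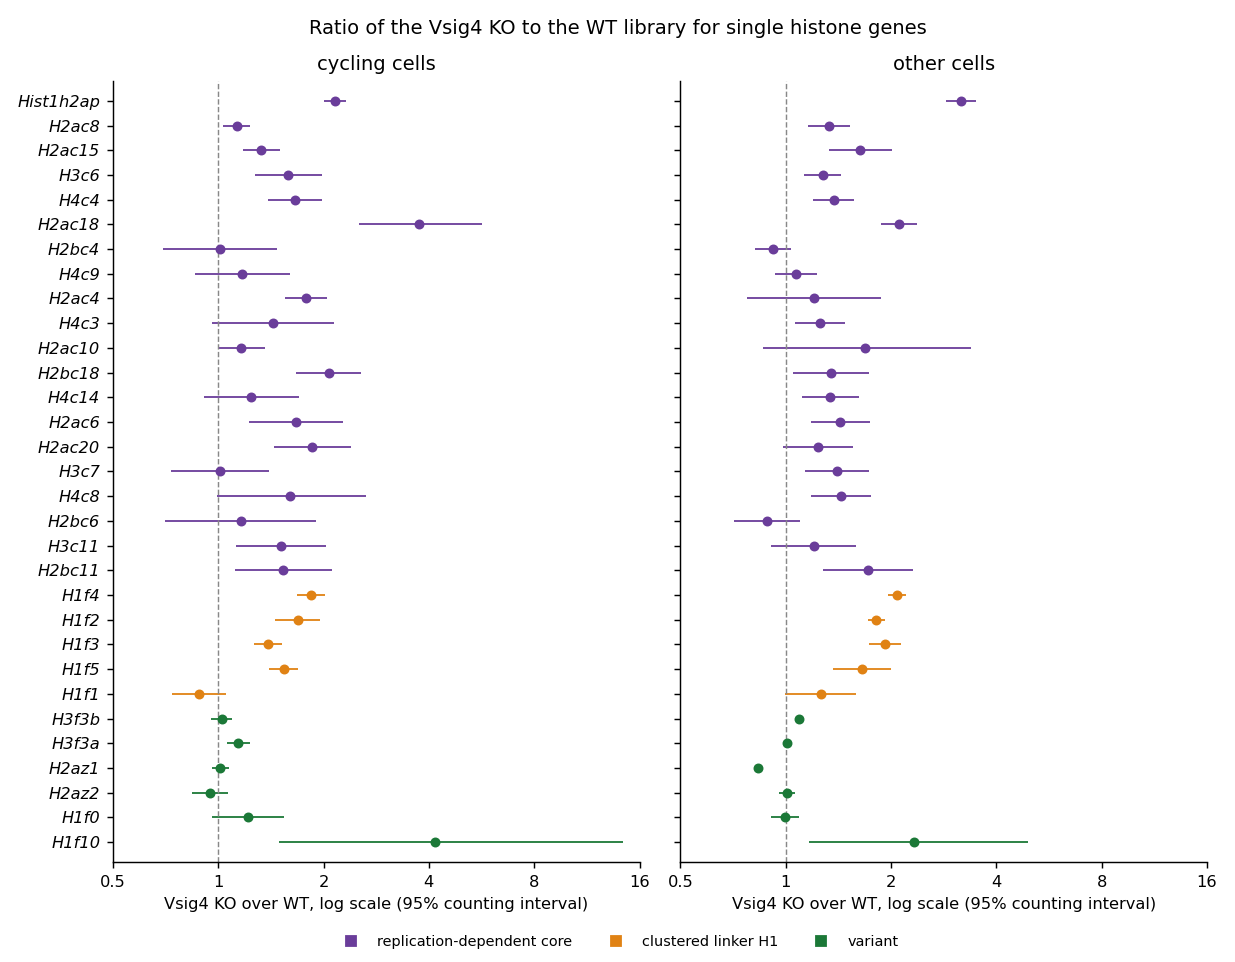
Ratio of Vsig4 KO to WT for 31 histone genes in cycling cells (left) and other cells (right), on a log axis with 95% counting intervals and a dashed line at 1; colours mark the kind of gene. In other cells Hist1h2ap (3.16) and the linker genes H1f4, H1f2 and H1f3 (1.82 to 2.08) sit right of the line, and the variants H3f3a, H3f3b, H2az2 and H1f0 close to it.

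In other cells the core ratio was above 1 in each of the 3 blocks of clustered genes. The core genes of the first block on chromosome 13 (mm10, 21715763 to 22043676) had a ratio of 1.95, those of the second block (23531050 to 23934851) of 1.22 and those of chromosome 3 (96219865 to 96270132) of 1.60. By annotated end, core genes ending within 100 bases of the stem-loop had a ratio of 2.11, or 1.30 without Hist1h2ap, H2ac18 and Hist1h4n. Those with longer annotation had 1.24 and those without a stem-loop in the annotation 1.22. The 4 H1 genes with a stem-loop, all annotated past it, had a ratio of 1.93.

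Some RNAs that are not polyadenylated in the usual way also differed between the libraries; these were looked up after the histone values had been seen. Rmrp, the RNA of the RNase MRP enzyme, had 126 UMIs in other cells of Vsig4 KO and 48 in WT, a ratio of 2.95 (2.10 to 4.20). Terc, the telomerase RNA, had 26 and 13 UMIs, a ratio of 2.25 (1.11 to 4.76). Malat1, whose 3′ end is a triple helix, stood at 6531 and 5471 CPM (1.19-fold), and Neat1, which has a short polyadenylated form, at 160 and 181 CPM (0.884-fold). H2ax, an H2A variant gene outside the symbols taken here whose RNA can end either way, stood at 39.3 and 33.2 CPM (1.18-fold, 1.08 to 1.30). In cycling cells Rmrp had 3 UMIs in Vsig4 KO and 4 in WT. The part of these RNAs in the histone differences was not tested, and genotype, mouse and library cannot be told apart.

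S-phase genes were set beside the histone values in other cells. Of 40 S-phase genes measured, 0 were at least 1.5-fold higher or lower in other cells of Vsig4 KO, with a median log2 ratio of 0.05, against a background of 0.835% of genes higher and 1.0% lower, from which a count of 0 cannot be told apart. Among other cells with 0 UMIs of the S-phase list and of the proliferation genes, the core ratio was 1.62 and the H1 ratio 2.23.

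The difference was found in most cell classes and clusters, compared in other cells where both libraries held at least 50 of them. The H1 ratio was above 1 in 18 of 18, with its interval above 1 in 14, from 1.02 (0.680 to 1.54) in mature DC-like to 2.10 (1.89 to 2.34) in NK cell-like cells. NK cell-like cells held 613 CPM of H1 RNA in Vsig4 KO and 291 CPM in WT, B cell-like cells 588 and 324 CPM and pDC-like cells 253 and 139 CPM. The core ratio was above 1 in 17 of 18, with its interval above 1 in 10. It was 1.58 in B cell-like cells (538 CPM in Vsig4 KO, 340 CPM in WT) and 1.53 in NK cell-like cells (591 and 387 CPM). Of the T cell-like clusters it was 1.58 in cluster 6 (348 and 220 CPM), 1.42 in cluster 10 (391 and 275 CPM) and 1.37 in cluster 17 (344 and 252 CPM).

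Monocyte and macrophage-like cells were spread over their clusters differently in the libraries, with 116 and 495 other cells in cluster 5, 178 and 338 in cluster 8, 108 and 221 in cluster 15 and 130 and 155 in cluster 16 of Vsig4 KO and WT. Summed over the type, core genes stood at 237 CPM in Vsig4 KO and 190 CPM in WT (1.245-fold) and H1 genes at 182 and 114 CPM (1.59-fold). By cluster the core ratio was 1.28 (1.09 to 1.505) in cluster 5, 1.21 (1.02 to 1.43) in cluster 8, 1.16 (0.871 to 1.54) in cluster 15 and 1.25 (0.994 to 1.57) in cluster 16. The H1 ratio was 1.79 in cluster 5, 1.645 in cluster 8 and 1.73 in cluster 15, each with its interval above 1, and 1.24 (0.712 to 2.20) in cluster 16. Levels differed between these clusters, the core sum being 151 and 125 CPM in cluster 8 and 494 and 396 CPM in cluster 16.

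In 5 further classes the core sums could not be told apart from equal by counting error. These were cDC1-like (221 and 218 CPM in Vsig4 KO and WT), pDC-like (246 and 241 CPM), mature DC-like (212 and 209 CPM), neutrophil-like (555 and 566 CPM) and conventional CD4 T cell-like cells (317 and 292 CPM). The interval of regulatory T cell-like cells (302 and 234 CPM) reached down to 1. In cDC1-like cells the H1 sum still differed, at 228 CPM in Vsig4 KO and 109 CPM in WT. The variant ratio was above 1 in 15 of 18 classes and clusters but small, with a median of 1.065, and its interval lay below 1 in cluster 16 (0.889, 0.818 to 0.965).

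Counted by type, 6 of 41 members were at least 1.5-fold higher in Vsig4 KO among B cell-like cells (background 0.929%), 3 of 41 among T cell-like (0.815%), 7 of 34 among NK and ILC-like (1.47%), 3 of 34 among monocyte and macrophage-like (1.23%), 4 of 28 among conventional DC-like (1.29%), 4 of 17 among pDC-like (2.57%) and 2 of 10 among granulocyte-like cells (10.5%). Lower in Vsig4 KO were 0 members in B cell-like (background 0.291%), T cell-like (0.266%), NK and ILC-like (1.25%), monocyte and macrophage-like (0.649%) and conventional DC-like cells (0.698%), 1 in pDC-like (2.84%) and 1 in granulocyte-like cells (12.7%). Hist1h2ap, measured with at least 20 UMIs in 15 classes and clusters, had ratios from 1.34 in conventional CD4 T cell-like to 4.28 in regulatory T cell-like cells. In B cell-like cells it stood at 137 CPM in Vsig4 KO and 41.3 CPM in WT. H1f4, measured in 16, had ratios from 1.21 in NKT cell-like to 2.30 in pDC-like cells, and H1f2, measured in 17, ratios from 0.847 in mature DC-like to 2.84 in cDC1-like cells.

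**Figure D4:**
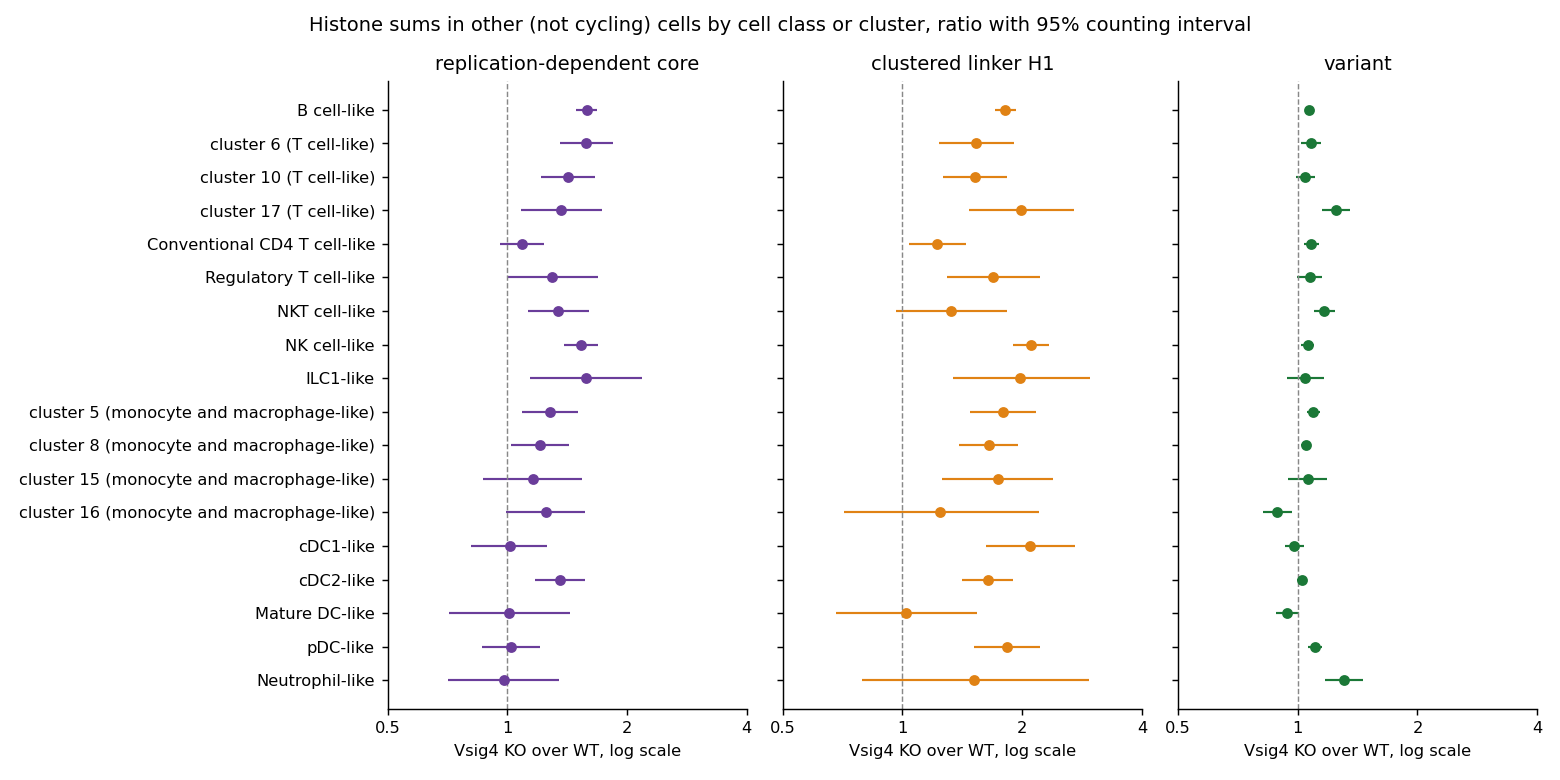
Vsig4 KO over WT ratio of the summed core (left), clustered H1 (middle) and variant (right) histone genes in other cells of 11 marker-named classes and 7 clusters given by number with their type, on a log axis with 95% counting intervals and a dashed line at 1. The H1 ratios sit right of the line in every row shown, with intervals that reach it in mature DC-like, NKT cell-like and neutrophil-like cells and in cluster 16; the variant ratios lie between 0.889 in cluster 16 and 1.31 in neutrophil-like cells.

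Summed, the cycling cells of Vsig4 KO also held more clustered histone RNA per UMI than those of WT, with few cells behind the values. The core sum was 6336 CPM in Vsig4 KO and 3860 CPM in WT (1.64-fold, 1.59 to 1.70), the H1 sum 3194 and 2098 CPM (1.52-fold, 1.45 to 1.60) and the variant sum 5049 and 4845 CPM (1.04-fold, 1.01 to 1.08). By count, 26 of 53 members were at least 1.5-fold higher, against 3.12% of all genes, and 0 lower, against 3.98%; 22 of the 26 were core genes. Hist1h2ap stood at 1893 and 878 CPM (2.16-fold) and H2ac18 at 91.3 and 24.3 CPM (3.75-fold), while H2ac8 stood at 823 and 729 CPM (1.13-fold) and H2az1 at 2016 and 1989 CPM (1.01-fold). Without the 10 cells with the most core UMIs in each library, the core ratio was 1.64. Cells with at least 1% core UMIs numbered 21 in Vsig4 KO and 7 in WT, so some remained in Vsig4 KO. The median cycling cell was alike in both, at 0.108% and 0.106%.

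The size differed between cell types. In cycling T cell-like cells the core sum was 7801 CPM in Vsig4 KO and 5758 CPM in WT (1.36-fold, 1.30 to 1.41), with Hist1h2ap at 2508 and 1262 CPM (1.99-fold) and H2ac8 at 969 and 1106 CPM (0.876-fold, 0.785 to 0.978). The H2B sum of the same cells was at 899 and 500.3 CPM (1.80-fold, 1.57 to 2.06), while the H3 sum was at 615 and 631 CPM (0.976-fold, 0.847 to 1.12). In cycling monocyte and macrophage-like cells, most of them of cluster 16, the core sum was 1067 and 654 CPM (1.63-fold, 1.24 to 2.14). Within cluster 16 the cycling cells held 1398 CPM (1137 to 1703) in Vsig4 KO and 1019 CPM (839 to 1226) in WT, with overlapping intervals. Over T cell-like cells of both states together the core sum was 915 CPM in Vsig4 KO and 897 CPM in WT (1.02-fold, 0.984 to 1.06), and cycling cells were 2.60% of them in Vsig4 KO and 3.39% in WT. Types with fewer than 10 cycling cells in a library are part of the sums too. The core ratio was 4.91 in NK and ILC-like cells, from 6 and 10 cells with 937 and 285 core UMIs. It was 2.16 in plasma cell-like (9 and 7 cells) and 2.125 in conventional DC-like cells (8 and 16 cells). B cell-like cells gave 315 core UMIs from 5 cycling cells of Vsig4 KO, and WT held 0 such cells. The part of these types in the 1.64-fold ratio was not tested. Cycling cells of unnamed clusters, 9 in Vsig4 KO and 5 in WT, are part of the sums over all cells. Of these, 8 and 5 belonged to cluster 27, of 37 cells in Vsig4 KO and 34 in WT, which was led by Dct, Tyrp1, Pmel and Mlana, genes of melanocytes and melanoma cells, although the sort was for CD45+ cells. Without that cluster the core ratio was 16.9 and 15.2 for cycling over other cells of Vsig4 KO and WT, 1.66 between genotypes in cycling cells and 1.49 in other cells.

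Among other cells the variant genes marked cell classes more than genotype. H3f3a was highest in B cell-like cells, at 2498 CPM in Vsig4 KO and 2465 CPM in WT, and lowest in NKT cell-like cells, at 584 and 593 CPM. Its genotype ratio lay between 0.933 in cluster 16 and 1.21 in cluster 17, with the interval above 1 in clusters 8 and 17 and below 1 in none of the 18 classes and clusters. H3f3b encodes the same protein but ranked the classes differently: 2874 and 1871 CPM in neutrophil-like, 2759 and 2219 CPM in pDC-like and 852 and 925 CPM in cDC1-like cells. Its ratio was above 1 in 15 of 18, with the interval above 1 in 13, and a median of 1.17.

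H2az1 was highest in mature DC-like cells, at 1566 CPM in Vsig4 KO and 2138 CPM in WT, and lowest in B cell-like cells, at 220 and 222 CPM. It was high, too, in cDC1-like (1271 and 1363 CPM), NK cell-like (1139 and 1099 CPM) and regulatory T cell-like cells (1004 and 907 CPM). Although lower in Vsig4 KO over all other cells, its ratio within classes and clusters had a median of 0.960. The interval lay below 1 in mature DC-like cells (0.732, 0.652 to 0.823), cDC2-like cells (0.906, 0.850 to 0.966) and cluster 15 (0.700, 0.499 to 0.969), and above 1 in cluster 8 (1.13, 1.05 to 1.22). H2az2 had its interval below 1 in 4 classes, among them NK cell-like cells at 187 and 241 CPM (0.774-fold).

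H1f0 differed widely between classes. It stood at 178 CPM in Vsig4 KO and 150 CPM in WT in mature DC-like cells, at 89.6 and 58.4 CPM in regulatory T cell-like and 72.5 and 58.8 CPM in monocyte and macrophage-like cells, and at 4.504 and 1.66 CPM in B cell-like cells. In pDC-like cells it was lower in Vsig4 KO, at 44.5 CPM against 85.7 CPM in WT (0.519-fold, 0.361 to 0.735). Of the core genes, H2bc4 was highest in neutrophil-like cells, at 185 CPM in Vsig4 KO and 209 CPM in WT, against 33.9 and 39.6 CPM in B cell-like and 9.17 and 14.3 CPM in conventional CD4 T cell-like cells. H2ac18 was highest there as well, at 131 and 123 CPM, from 17 and 20 UMIs.

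**Figure D5:**
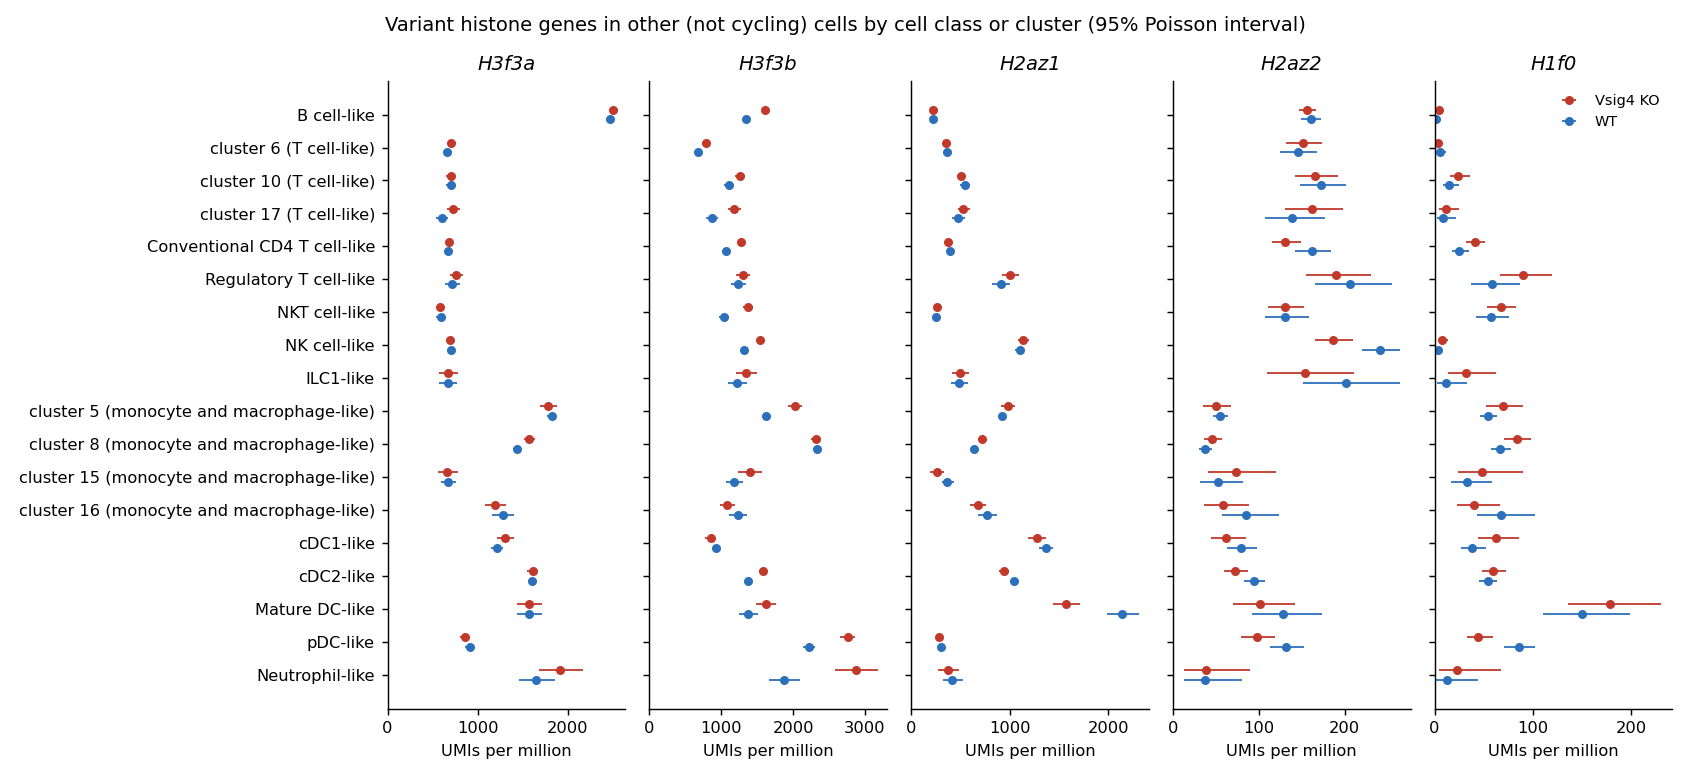
Level of 5 variant genes in other cells of 11 marker-named classes and 7 clusters given by number, in CPM with 95% Poisson intervals, for Vsig4 KO (red, upper point) and WT (blue, lower point). H3f3a peaks in B cell-like cells and H2az1 and H1f0 in mature DC-like cells, where H2az1 is at 1566 in Vsig4 KO and 2138 in WT.

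Several factors that handle histone RNA and protein were higher in cycling cells. Of 16 genes of histone gene transcription and 3′ processing, 4 were at least 1.5-fold higher in cycling cells of Vsig4 KO and 8 in WT, against 10.2% and 11.3% of all genes, and 0 lower, against 12.1% and 10.9%. Slbp stood at 208 CPM in cycling and 77.3 CPM in other cells of Vsig4 KO (2.68-fold), and at 198 and 66.3 CPM in WT (2.98-fold). Of 26 histone chaperone and deposition genes, 13 were higher and 1 lower in cycling cells of Vsig4 KO, and 14 higher and 0 lower in WT, over the same backgrounds. Asf1b, an H3-H4 chaperone, gave 28.3-fold and 25.6-fold, and Chaf1a, the large subunit of the replication-coupled assembly factor CAF-1, 11.1-fold and 11.5-fold. Hira, which deposits H3.3 outside replication, gave 0.983-fold and 1.19-fold.

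Between genotypes, 0 genes of either list were at least 1.5-fold higher or lower, in cycling cells (background 3.12% higher and 3.98% lower) or in other cells (0.835% and 1.0%), so these counts cannot be told from the background. Slbp stood at 77.3 CPM in Vsig4 KO and 66.3 CPM in WT in other cells (1.17-fold) and at 208 and 198 CPM in cycling cells (1.05-fold). The median log2 ratio of the 3′ processing list in other cells was 0.09 and that of the chaperone list 0.07.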

How the data were processed

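Droplet 5′ single-cell RNA libraries, 1 from Vsig4 KO and 1 from WT mice, were deposited by the authors as raw UMI counts per gene and cell barcode. Cell Ranger 7.1.0 and mm10 are named per the submitters' processing notes; the gene annotation and the handling of introns are not given in the sources used here. Cells with at least 500 UMIs, at least 200 genes and at most 10% mitochondrial UMIs were kept (5746 Vsig4 KO, 6872 WT). Scrublet's own threshold marked 1 and 0 doublets, so 264 and 378 cells with the highest scores were removed instead. Clusters (scanpy 1.11.5, leidenalg 0.10.2, resolution 1.5) were named from marker genes; haemoglobin genes and receptor V segments were left out of naming, and 7 clusters were given by number, after the data had been seen. Counts were summed per library and state. Ratios carry exact conditional binomial intervals and levels exact Poisson intervals (scipy 1.17.1), which cover counting error only. Of the members, 4 had no UMI and 64 had at least 20. Every variant and the 20 core genes with the most UMIs were named, besides genes said to be named after their values were seen. The members and lists were chosen with earlier results of these data known, and H1f1 to H1f6 were grouped apart after the symbols had been read. Gene IDs of 73 members matched GENCODE M21.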

Additional observations from a re-analysis of the deposited data

Results flagged for a closer look

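Some members had ratios between the libraries on opposite sides of 1 in different cell classes or clusters. The differences between classes were not tested. Genes were listed here when at least 1 interval lay above 1 and another below 1. The search took in the 20 core genes with the most UMIs and all H1 and variant genes, over 18 classes and clusters. Among so many 95% intervals some lie off 1 by counting error alone, and no floor of UMIs was set. In other cells H4c3, an H4 gene, had a Vsig4 KO over WT ratio of 1.62 (1.06 to 2.48) in NK cell-like cells and 1.78 (1.02 to 3.17) in cluster 6. The ratio was 7.02 (1.40 to 67.9) in cluster 15, from fewer than 20 UMIs, and 0.260 (0.0490 to 0.890) in cDC2-like cells. Where H4c3 had at least 20 UMIs its highest ratio was 2.12, in cluster 17. H3c6 had ratios of 1.55 in B cell-like and 1.65 in NK cell-like cells, and of 0.377 in cluster 17. H2az1, a variant gene, had a ratio of 1.13 in cluster 8, and of 0.732 in mature DC-like cells, 0.906 in cDC2-like cells and 0.700 in cluster 15. H1f0, the linker histone of resting cells, had ratios of 2.71 in B cell-like, 1.62 in conventional CD4 T cell-like and 1.63 in cDC1-like cells, and of 0.519 in pDC-like cells.

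Cycling cells were also split by whether the S-phase list (40 genes) or the G2/M list (27 genes) held more raw UMIs, with ties placed in G2/M. The lists differ in length, so the split is not a call of cell cycle phase. For some sums and genes the S-led over G2/M-led ratio lay on opposite sides of 1 in the libraries. That difference was not tested either. The core sum had a ratio of 0.750 (0.717 to 0.785) in Vsig4 KO and 1.06 (1.002 to 1.122) in WT, and the clustered H1 sum of 0.730 (0.685 to 0.778) in Vsig4 KO and 1.85 (1.69 to 2.01) in WT. Among single genes H2ac15 had 0.795 in Vsig4 KO and 1.59 in WT, H2ac10 0.600 and 2.09, H2bc18 0.330 and 1.60, H1f3 0.601 and 1.96, and H1f4 0.648 and 1.495. These are the genes whose intervals lay on opposite sides of 1, and other members did not share the pattern. Hist1h2ap, the core member with the most UMIs, had 1.17 (1.07 to 1.28) in Vsig4 KO and 0.955 (0.849 to 1.07) in WT. The H3 sum was below 1 in both libraries, at 0.588 (0.505 to 0.685) and 0.6195 (0.521 to 0.736), the H2B sum was 0.498 and 0.847 and the H2A sum 0.828 and 1.18. The 10 cells with the most core UMIs held 52.3% of the core UMIs of cycling Vsig4 KO cells and 50.5% of those of cycling WT cells, and their part in these ratios was not tested.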

How the results depend on the processing

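No paired analysis was possible because each genotype has 1 library. Over all alternatives the core and H1 sums stayed higher in cycling cells and in Vsig4 KO when all cell types were summed; the cause of the shifts below was not tested. In each list cycling over other comes first (Vsig4 KO, then WT), then Vsig4 KO over WT. With a threshold of 2 proliferation UMIs the core ratios were 10.09 and 10.46, and 1.44 in cycling cells; H1 5.70, 7.91 and 1.37; variant 1.196, 1.24 and 0.980, a turned direction. With 8 UMIs they were 21.6, 18.1 and 1.76; H1 11.9, 13.7 and 1.63; variant 1.47 and 1.40. With 2 UMIs after thinning to 2000 they were 20.0 and 18.5; H1 11.1 and 13.3; variant 1.47 and 1.43. With 5 S-phase genes as the rule, the core ratio between genotypes was 1.55 in cycling cells, H1 1.83 in other cells, and variant 1.24 for Vsig4 KO and 0.949 between genotypes in cycling cells, again turned. Without doublet removal the core ratios were 15.1 for Vsig4 KO and 1.53 in cycling cells, and H1 8.25 and 1.42. As means of per-cell CPM, core was 11.7, 9.76 and 1.79 in cycling cells, H1 5.77 and 7.56, and variant 1.46, 1.44 and 1.04 in other cells. Without the top member, core was 14.1, 12.6, 1.49 in cycling and 1.33 in other cells, H1 10.4, 13.3, 1.41 and 1.80, and variant 1.76, 1.60 and, in other cells, 0.957, turned. A pseudocount of 1 raised the members higher in other cells of Vsig4 KO to 10. The next alternatives were chosen after seeing the data. Against other cells with no proliferation or S-phase UMI, core was 14.1, 14.0 and 1.62 in other cells, H1 8.44, 12.3 and 2.23, and variant 1.31 for Vsig4 KO and 1.04. Without Hist1h2ap, H2ac18 and Hist1h4n, core was 13.7 in WT, 1.46 in cycling and 1.24 in other cells. With H1f1 to H1f6 added, core was 12.9, 13.4 and 1.66 in other cells, or variant 2.05, 1.82, 1.19 in cycling and 1.06 in other cells. Leaving out cluster 27, led by melanoma genes, moved no value past its interval. By type, variant ratios turned in monocyte and macrophage-like cells of Vsig4 KO (cycling over other, 0.991 with 2 UMIs and 0.930 with S-phase genes) and between genotypes (0.979 as per-cell means, 0.979 without the top member, 0.859 in the strict cells), and without the top member in NK and ILC-like (0.982) and pDC-like cells (0.896). H1 turned in the strict conventional DC-like (0.540, 14 and 55 UMIs) and pDC-like cells (0.821, 12 and 18 UMIs). Stricter mitochondrial or gene filters, resolution 0.8, a minimum of 50 UMIs and sums of members with 20 UMIs moved no main result. Limits are 1 library per genotype, 100 and 120 cycling cells, and copies that share sequence.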

Other observations

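Histone genes outside the symbols taken here gave values of the same libraries. In other cells H2aj, a replication-independent H2A gene, stood at 280.2 CPM in Vsig4 KO and 328 CPM in WT (0.855-fold, 0.827 to 0.884), and Macroh2a1, the macroH2A gene, at 277 and 304 CPM (0.913-fold, 0.883 to 0.944). Cenpa, the centromeric H3 gene, stood at 46.8 and 42.7 CPM (1.10-fold, 1.005 to 1.195). In cycling cells H2ax stood at 393 CPM in Vsig4 KO and 284 CPM in WT (1.38-fold, 1.21 to 1.58), and Cenpa at 249 and 234 CPM (1.06-fold, 0.906 to 1.25).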
